A study of Mus musculus with 15 samples.

Results

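The 40 genes described here carry out DNA replication and mitosis: 19 act in S phase (Mcm2 to Mcm7 and Mcm10, Pcna, Rrm1, Rrm2, Tk1, Tyms, Cdc6, Cdt1, Gins2, Rfc4, Pola1, Prim1 and Uhrf1) and 21 in mitosis (Mki67, Top2a, Cdk1, Ccna2, Ccnb1, Ccnb2, Aurka, Aurkb, Bub1, Bub1b, Plk1, Birc5, Cdc20, Cenpe, Cenpf, Kif11, Kif20a, Nusap1, Tpx2, Ube2c and Foxm1). They were chosen by gene symbol, with no threshold on a value, and all 40 were found among the 34245 genes of the table of differentiating cells and among the 25965 genes of the table of IL4-treated cells. The study grew marrow of C57BL/6 males, 8 to 10 weeks old, in CSF-1, the growth factor that drives the survival, division and maturation of macrophages, and sequenced their RNA on an Ion Torrent instrument.

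The 5 groups held 3 libraries each. The titles number the mice 1 to 3 in every group without saying whether a number stands for the same animal throughout. The column headers of the IL4 table give each library an M number of its own, whose meaning is not stated. Precursors were the cells not attached to the dish when 2 days at 0.6 ng/ml of the factor, with 15% fetal calf serum, had passed. Immature macrophages had 4 further days at 12 ng/ml CSF-1 in 10% serum, 6 days in all. Mature macrophages had 1 day at 0.6 ng/ml, 2 days at 12 ng/ml and 7 days at 120 ng/ml, 10 days in all. Unstimulated and IL4 macrophages were mature cells kept for 48 h more at 120 ng/ml CSF-1, without or with 20 ng/ml IL4, the cytokine of alternative macrophage activation. The groups of the first table differ in CSF-1 dose and in days of culture together, so dose and time cannot be told apart, and the 2 tables were made and scaled separately, so no level is compared between them.

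A cell that commits to division first makes the enzymes that copy DNA and later the machinery that separates the copies. The MCM helicase is loaded on origins by Cdc6 and Cdt1 and opened with GINS, primase and polymerase alpha prime the new strands, the clamp Pcna and its loader keep the polymerases in place, and ribonucleotide reductase, thymidine kinase and thymidylate synthase supply nucleotides. Cyclin-dependent kinase 1 with its cyclins, the Aurora and Polo kinases, kinesins and the spindle checkpoint then drive mitosis, and the anaphase-promoting complex (APC/C) ends it by destroying cyclins and other substrates. E2F factors switch on the first set of genes, and B-Myb, FoxM1 and the MuvB complex the later one, whose promoters often carry a CHR element (cell cycle genes homology region) beside CCAAT boxes. Macrophages differ from many differentiated cells in that they can go on dividing in CSF-1, and IL4 is known to drive division of some tissue macrophages in the animal.

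The promoters of both sets are shown first because their sequence words differ along the same line that divides the members by role. RefSeq promoters (GRCm38.p6, 250 bases before to 50 after the gene start) were matched for 33 of the 40 members, 17 of S phase and 16 of mitosis. They were not matched for Mcm4, Gins2, Ccna2, Aurkb, Kif20a, Tpx2 and Foxm1. On both strands, the E2F words TTTCCCGC, TTTCGCGC, TTTGCCGC or TTTGGCGC stood in 7 of 17 S phase promoters (41.2%) and in 1 of 16 mitotic promoters (6.25%, Cdk1), against 2.32% of 27025 promoters of all genes. The CHR word TTTGAA stood in 1 of 17 S phase promoters (5.88%, Mcm2) and in 11 of 16 mitotic promoters (68.8%), against 18.1% of all. The CCAAT word stood in 70.6% of S phase and 87.5% of mitotic promoters, against 37.9% of all, and at least 2 copies stood in 41.2%, 62.5% and 12.2%. A match is a match of letters and no measured site.

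The 175 bases before the start are printed 5′ to 3′ on the gene's strand, with the E2F, CHR and CCAAT words of either strand in capitals. The S phase genes shown, whose windows hold an E2F word, are Mcm5 (chr8:75109334-75109508, plus strand), Mcm6 (chr1:128359706-128359880, minus strand) and Cdc6 (chr11:98907976-98908150, plus strand). In Mcm5 and Mcm6 the longest run of capitals is a pair of overlapping E2F words.
Mcm5: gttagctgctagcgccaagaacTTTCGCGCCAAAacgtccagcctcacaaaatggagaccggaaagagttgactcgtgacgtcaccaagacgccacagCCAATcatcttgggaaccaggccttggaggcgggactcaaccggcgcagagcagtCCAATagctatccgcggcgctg
Mcm6: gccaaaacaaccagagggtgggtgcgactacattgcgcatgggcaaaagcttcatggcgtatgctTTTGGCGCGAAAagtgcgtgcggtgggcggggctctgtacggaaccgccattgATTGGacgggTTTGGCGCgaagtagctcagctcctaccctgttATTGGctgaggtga
Cdc6: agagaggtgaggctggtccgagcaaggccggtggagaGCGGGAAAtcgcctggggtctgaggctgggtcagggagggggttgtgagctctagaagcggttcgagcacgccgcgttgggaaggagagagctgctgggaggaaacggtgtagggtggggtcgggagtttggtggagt
The mitotic genes shown, each with a CHR word there, are Mki67 (chr7:135716380-135716554, minus strand), Cdk1 (chr10:69352913-69353087, minus strand), Cdc20 (chr4:118437344-118437518, minus strand) and Ube2c (chr2:164769754-164769928, plus strand). Cdk1 carries an E2F word 131 bases before its start and CHR words 71 and 15 bases before it, and so holds both kinds.
Mki67: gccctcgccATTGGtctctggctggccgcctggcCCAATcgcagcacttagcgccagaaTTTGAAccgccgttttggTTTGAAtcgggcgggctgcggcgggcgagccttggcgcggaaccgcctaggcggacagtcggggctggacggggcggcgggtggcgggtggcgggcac
Cdk1: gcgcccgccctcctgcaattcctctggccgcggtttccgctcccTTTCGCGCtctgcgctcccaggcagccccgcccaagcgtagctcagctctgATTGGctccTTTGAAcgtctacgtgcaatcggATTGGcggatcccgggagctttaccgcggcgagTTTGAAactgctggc
Cdc20: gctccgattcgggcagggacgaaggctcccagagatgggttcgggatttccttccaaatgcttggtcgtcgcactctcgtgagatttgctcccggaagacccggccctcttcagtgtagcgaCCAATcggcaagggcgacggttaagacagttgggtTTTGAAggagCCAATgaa
Ube2c: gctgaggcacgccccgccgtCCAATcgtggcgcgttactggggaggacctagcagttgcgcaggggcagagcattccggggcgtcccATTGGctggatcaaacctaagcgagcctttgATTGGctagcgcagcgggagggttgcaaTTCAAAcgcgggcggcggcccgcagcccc

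Libraries held 7897769 to 22167294 reads in the differentiation table and 2408531 to 4214266 in the IL4 table. Reads of the 40 members made up 0.666% to 0.695% of all reads in the 3 precursor libraries, 0.0801%, 0.313% and 0.444% in immature libraries 1 to 3, 0.215%, 0.306% and 0.413% in mature libraries 1 to 3, 0.138% to 0.213% in the unstimulated and 0.0474% to 0.108% in the IL4 libraries. Within all groups but the precursors the members moved together: immature library 1 was the lowest of its group for 40 of 40 members, mature library 1 for 39 of 40, unstimulated library 1 for 31 and IL4 library 1 for 35 of the 38 members with reads. Among the precursors library 3 was the lowest for 23 of 40 members, 17 of S phase and 6 of mitosis. In bulk RNA, fewer dividing cells and less of these RNAs per cell cannot be told apart.

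Levels below are CPM, reads of a gene scaled to the depth of its library, after TMM scaling within a table. To place each library, every member's log2(CPM + 1) was centred on its mean over the table's libraries and averaged over the S phase and over the mitotic members, which gives a level index on the log2 scale. The plot of this index shows the 3 precursor libraries close together, at 0.57 to 0.81 for S phase and 0.79 to 0.85 for mitosis. The immature libraries were spread over -2.12, -0.38 and 0.32 for S phase and -1.75, 0.29 and 0.59 for mitosis. The mature libraries stood at -0.42, 0.14 and 0.35 for S phase and -1.26, -0.39 and 0.05 for mitosis.

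**Figure D1:**
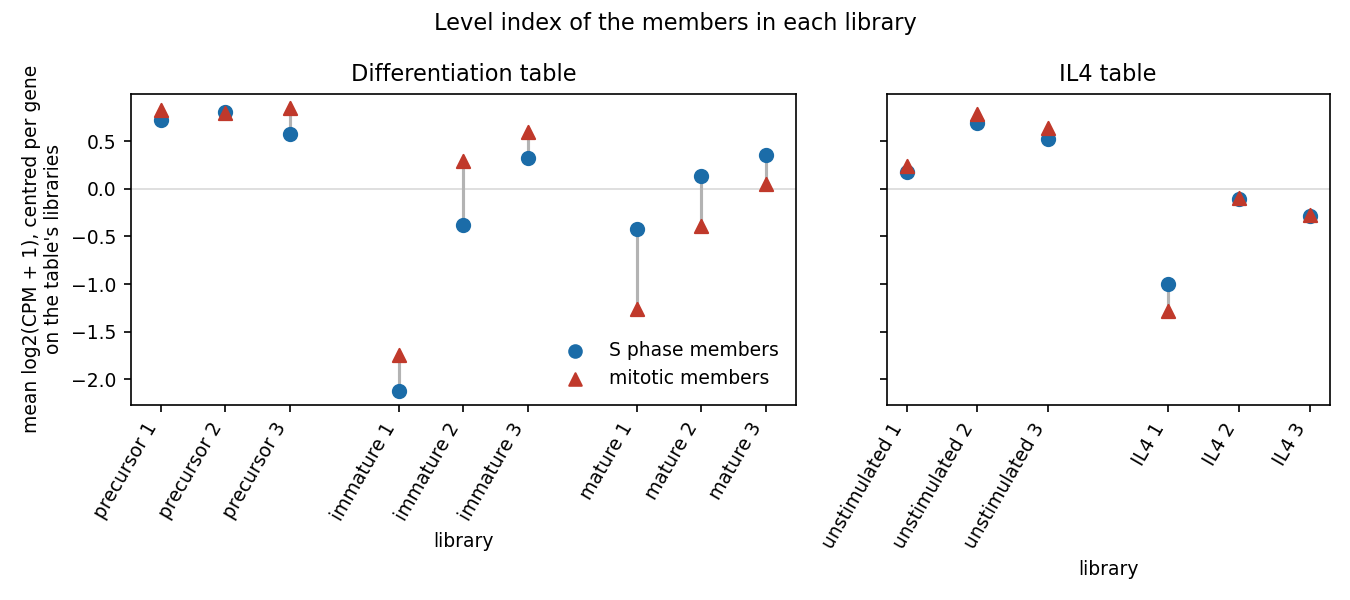
Level index (mean log2(CPM + 1), centred per gene) of the S phase members (circles) and mitotic members (triangles) in each of the 15 libraries, each table on its own. In the differentiation table the triangle lies above the circle in the 3 immature libraries and below it in the 3 mature libraries, and immature library 1 is the lowest of all 9 for both sets.

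The difference S phase minus mitotic within a library was -0.10, 0.01 and -0.28 in the precursors, -0.37, -0.67 and -0.27 in the immature and 0.84, 0.53 and 0.30 in the mature libraries. The 3 mature values lay above all 6 others. The same order between immature and mature libraries was found with a pseudocount of 0.5 or 5 CPM, with RLE scaling and on the deposited log2 RPM. The index over 52 other replication genes and 66 other mitosis genes, computed in the same way, gave differences of 0.21, -0.58 and -0.30 in the immature and 0.57, 0.33 and 0.11 in the mature libraries, and here immature library 1 lay above mature library 3.

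The precursors were a mixture by their markers, which bears on every comparison with them. Summed CPM of 14 neutrophil granule genes was 14880 to 22140 in precursors, 234 to 287 in immature and 2.69 to 5.66 in mature libraries, where Mpo, Elane, Prtn3, Ctsg, Camp, Ngp, S100a9, Retnlg and Cxcr2 had 0 reads. The 10 erythroid markers summed to 158 to 326 CPM in precursors and to at most 5.01 and 0.936 CPM in immature and mature libraries, and the 10 B lineage markers to 340 to 495 against at most 2.94 and 0.117. The 10 stem and progenitor markers summed to 561 to 658, 210 to 274 and 143 to 274 CPM. Kit, Flt3, Myb, Gata2, Mecom and Hlf had 0 reads in mature libraries. Spi1 alone had means of 219, 224 and 198 CPM in the same order, most of the immature and mature sums. The median log2 fold change of the 9 tested was -5.37 in immature and -7.65 in mature macrophages against precursors. The 14 macrophage markers summed to 2637 to 3969 CPM in precursors, 20820 to 33682 in immature and 22697 to 31677 in mature libraries. The part of this change in cell types in the members' levels was not tested.

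Of the 8 members called lower in immature macrophages than in precursors, 7 act in S phase, though most members of both sets did not pass. Log2 fold changes were below 0 for 18 of 19 S phase and 21 of 21 mitotic members. Of the 40 members, 8 fell, 0 rose and 32 did not pass (edgeR quasi-likelihood test, Benjamini-Hochberg adjusted p under 0.05 over 13359 genes). In that comparison 26.6% of all genes tested were called lower and 22.5% higher. In this fit the members' 20.0% is thus no higher than the background. Some alternatives called a larger share of the members than of all genes, and others a smaller share. The members' share was larger with DESeq2, limma and mouse number as a block. It was smaller in every fit that left out a single precursor library. At an unadjusted p under 0.05, 17 members were lower and 0 higher, and DESeq2 and limma also called 0 higher. The 3 immature libraries all lay below the 3 precursor libraries for 26 members, and for 35.6% of all genes. Of the 8 genes that fell, 7 act in S phase (36.8% of 19) and 1 in mitosis (4.76% of 21). The median log2 fold change was -1.23 over the S phase and -0.73 over the mitotic members, against -0.07 over all genes. Both medians moved with the immature libraries: they were -0.77 and -0.26 without immature library 1, and the mitotic one was -1.19 without immature library 3.

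Among the genes that load and form the MCM helicase, Cdc6, the loader whose level limits origin licensing, had 36.2, 34.7 and 28.4 CPM in precursors and 3.15, 7.68 and 16.7 CPM in immature macrophages. The groups did not overlap, and Cdc6 fell by 1.87 ± 0.47 (SE) on the log2 scale (adjusted p = 0.00721). Its partner Cdt1, which brings MCM to the origin, had 40.9 to 48.0 CPM in precursors and 16.2, 24.2 and 33.9 in immature macrophages (log2 fold change -0.87 ± 0.37, adjusted p = 0.0712). Mcm4 fell from 133, 164 and 128 to 24.9, 52.6 and 84.7 CPM (-1.39 ± 0.36, adjusted p = 0.00883). Mcm2, Mcm3 and Mcm7 fell by 1.53, 1.27 and 1.33, while Mcm5 (-1.23 ± 0.59, adjusted p = 0.110) and Mcm6 (-1.17 ± 0.47, adjusted p = 0.0603) had changes of similar size that did not pass. Mcm10, which helps to start the helicase, was at -1.25 ± 0.54. Gins2, a subunit of the active helicase, was at 0.09 ± 0.42, the only member with a value above 0 in this fit.

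At the fork, the primase subunit Prim1 had a narrow range of 34.3 to 34.7 CPM in precursors and 5.60, 17.7 and 17.6 CPM in immature macrophages, and fell by 1.35 ± 0.38 (adjusted p = 0.0134). Rfc4, a subunit of the clamp loader, fell from 20.9, 24.95 and 25.7 to 7.25, 9.62 and 16.1 CPM (-1.13 ± 0.34, adjusted p = 0.0186). The clamp Pcna overlapped between the groups, with 410, 426 and 371 against 141, 293 and 456 CPM (-0.44 ± 0.40, adjusted p = 0.380). Among the nucleotide enzymes, the reductase subunit Rrm2 was at -1.85 ± 0.71 (adjusted p = 0.0516), Rrm1 at -0.96, thymidylate synthase Tyms at -1.21 and thymidine kinase Tk1 at -0.24, and none passed. Uhrf1, which carries DNA methylation over to new strands, was at -1.61 ± 0.73 with 4.25, 45.8 and 91.1 CPM in immature against 113 to 163 CPM in precursor libraries.

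Mki67 (chr7:135689784-135716361 on GRCm38), which coats mitotic chromosomes and is the usual marker of dividing cells, was the mitotic gene that fell. It had 1178, 1013 and 1153 CPM in precursors and 105, 331 and 359 CPM in immature macrophages, a 4.21-fold difference (log2 -2.07 ± 0.49, adjusted p = 0.00516) with no overlap. The other mitotic members ranged from -1.47 (Foxm1, the transcription factor of mitotic genes, adjusted p = 0.0840) to -0.07 (Ccnb2, a B-type cyclin, adjusted p = 0.913). For Cdk1, the kinase of mitotic entry, the precursor values of 86.2, 92.0 and 82.9 CPM stood beside 21.0, 84.0 and 88.1 CPM in immature macrophages. Ccnb1, Ccnb2, Cdc20 and Birc5 showed the same layout, with libraries 2 and 3 near the precursors and library 1 far below.

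**Figure D2:**
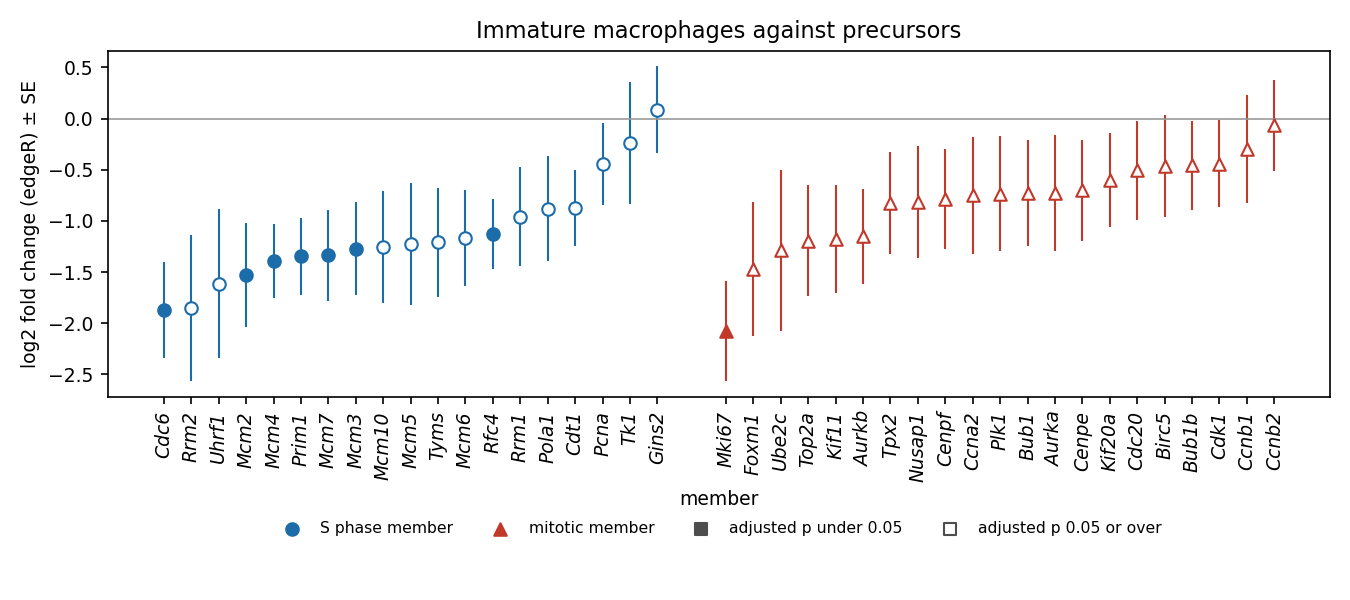
Log2 fold change ± SE of each member in immature macrophages against precursors, S phase members as circles and mitotic members as triangles, filled where the adjusted p was under 0.05. The 7 filled circles and 1 filled triangle are the genes that fell, and Gins2 is the point above 0.

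The count of 8 depended on single libraries. It was 5, 4 and 5 with precursor library 1, 2 or 3 left out in turn and 10, 4 and 20 with immature library 1, 2 or 3 left out. Over all genes, 3035 of 13548, 2977 of 13445 and 3101 of 13609 were called lower without those precursor libraries. Without those immature libraries they were 3207 of 13667, 2768 of 13857 and 3333 of 13844. The count of members was 20 with mouse number as a block, where Mcm5, Mcm6, Mcm10, Rrm1, Rrm2, Tyms, Cdt1, Uhrf1, Top2a, Aurkb, Kif11 and Foxm1 also fell. With that block, 3382 of 13359 genes were called lower. Mcm4, Cdc6, Prim1 and Mki67 passed under every alternative tried. In the authors' deposited table of this comparison 16 members were among the 7468 genes listed at an FDR under 0.05, the 8 called here included.

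Other genes of the pathway were counted from lists. Of 52 other replication genes, 23 fell, 0 rose and 29 did not pass (median -0.99), with Hells, a chromatin remodeller, the lowest at -3.03 ± 0.61 (adjusted p = 0.00221) and Gins4 the highest at 0.46 ± 0.28 (adjusted p = 0.192). Of 66 other mitosis genes, 10 fell and 56 did not pass (median -0.71), with the cytokinesis kinase Cit the lowest at -1.98 ± 0.48 (adjusted p = 0.00614) and the phosphatase Cdc25b the highest at 0.71 ± 0.32 (adjusted p = 0.0852). Of 20 E2F, DREAM and MuvB regulators, 9 fell and 1 rose: the repressor E2f8 was the lowest at -3.20 ± 0.54 (adjusted p = 0.000733), and E2f5 was the gene that rose, by 1.17 ± 0.35 (adjusted p = 0.0176). Of 17 APC/C subunits and activators, 3 rose and 0 fell (median 0.05), with Anapc11 at 1.13 ± 0.24 (adjusted p = 0.00286) and the inhibitor Fbxo5 at -1.26 ± 0.52 (adjusted p = 0.0639).

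From immature to mature macrophages no single member passed, and the 2 sets of genes had values on opposite sides of 0. Of 19 S phase members, 18 had a log2 fold change above 0, with a median of 0.44 and Rfc4 (-0.04) as the exception. Of 21 mitotic members, 20 had one below 0, with a median of -0.39 and Cdk1 (0.20) as the exception, while the median of all 13359 genes was 0. edgeR called 0 members lower and 0 higher, with 7.38% of all genes called lower and 7.52% higher. At an unadjusted p under 0.05, 0 were lower and 2 higher (Pcna and Mcm6), and DESeq2 called 0 lower and 1 higher (Pcna, adjusted p = 0.0154). For 0 members did the 3 mature libraries all lie below the 3 immature ones, which held for 15.4% of all genes.

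**Figure D3:**
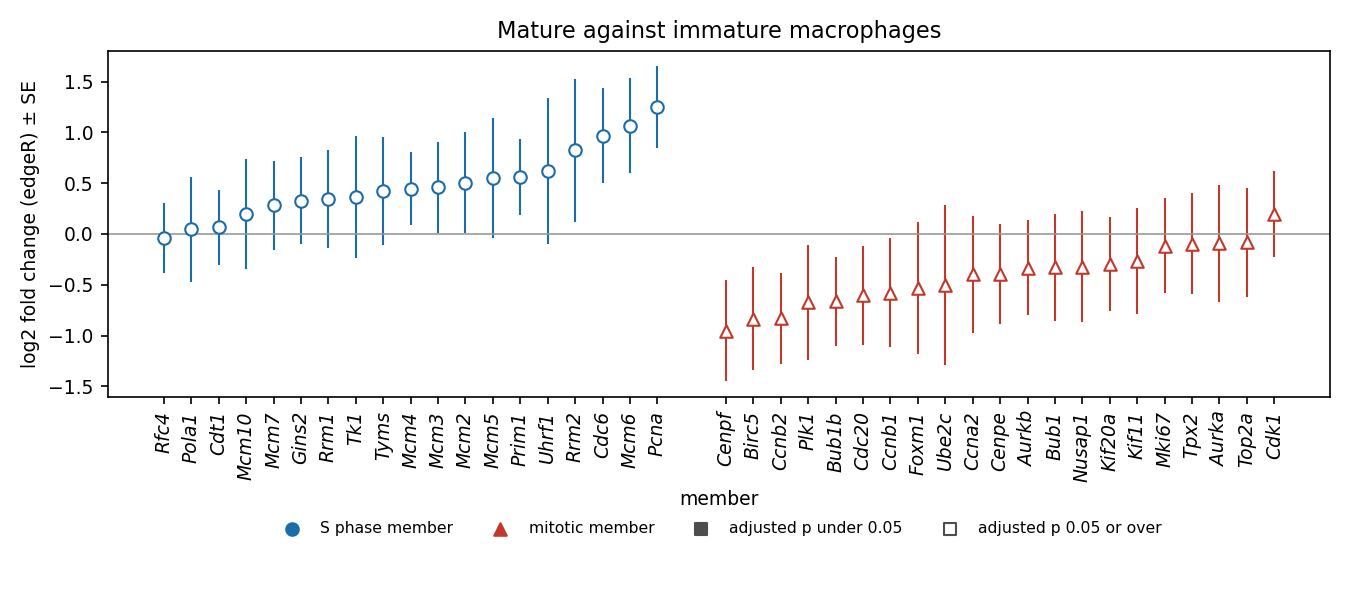
Log2 fold change ± SE of each member in mature against immature macrophages. Open symbols mark an adjusted p of 0.05 or over, which holds for all 40; 18 of 19 circles (S phase) lie above 0 and 20 of 21 triangles (mitosis) below it.

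Pcna (chr2:132249162-132253314), the sliding clamp, had 141, 293 and 456 CPM in immature and 672, 419 and 1018 CPM in mature macrophages. Its groups overlapped through mature library 2 (log2 fold change 1.25 ± 0.40, adjusted p = 0.0628). Mcm6 (chr1:128331590-128359664) had 35.9, 127 and 217 CPM in immature and 227, 255 and 310 CPM in mature macrophages and was the member whose groups did not overlap (1.07 ± 0.47, adjusted p = 0.153). Cdc6 was at 0.97 ± 0.46 and Rrm2 at 0.82 ± 0.70. On the mitotic side Cenpf, a kinetochore protein, was the lowest at -0.95 ± 0.50 (adjusted p = 0.226), with 19.7, 86.9 and 122.7 CPM in immature and 27.5, 52.8 and 38.2 CPM in mature macrophages. Birc5 (survivin, of the chromosomal passenger complex) was at -0.83 ± 0.51 and Ccnb2 at -0.83 ± 0.45.

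Ube2c, the ubiquitin-conjugating enzyme of the APC/C, and Foxm1 were uneven among the mature libraries. Ube2c had 12.8, 42.2 and 50.7 CPM in immature and 3.97, 9.36 and 60.5 CPM in mature macrophages, and Foxm1 9.69, 40.2 and 51.9 against 9.23, 11.0 and 49.4 CPM. In both genes mature library 3 was level with immature libraries 2 and 3, and mature libraries 1 and 2 were far lower. Plk1 showed this too, with 12.8, 15.5 and 44.9 CPM in mature macrophages. The other mitotic members spread less among the same libraries, such as Bub1b with 50.6, 81.4 and 63.8 CPM.

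The place of the 2 sets against 0 moved with single libraries, and the gap between their medians less. The gap was 0.84, and from 0.66 to 0.97 with 1 library left out, 0.92 with limma on the deposited log2 RPM and 0.90 with mouse number as a block. Without immature library 1, 10 of 19 S phase members were above 0 (median 0.03) and 21 of 21 mitotic members below it (median -0.83). Without immature library 3, 19 of 19 were above 0 (median 0.95) and 11 of 21 below it (median -0.01). The mitotic median was -0.24 without immature library 2, -0.07 without mature library 1, -0.65 without mature library 3 and -0.19 with limma, and the S phase median 0.73 with limma.

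Leaving out immature library 1 gave 4 mitotic members called lower, among them Cenpf (adjusted p = 0.00768), Bub1b (0.0114) and Cdc20 (0.0443), and leaving out immature library 3 gave 3 S phase members called higher, among them Cdc6 (0.0178) and Pcna (0.0237). Without mature library 2 there was 1 higher (Pcna, 0.0408) and without mature library 3 there was 1 lower (Ube2c, log2 fold change -2.42, adjusted p = 0.0174). Over all genes, 691 of 13667 were called lower without immature library 1 and 1436 of 13654 without mature library 3. Called higher were 876 of 13844 without immature library 3 and 744 of 13857 without mature library 2. Of 52 other replication genes, 44 had a value above 0 (median 0.37) and 2 rose, with Hells the highest at 1.87 ± 0.59 (adjusted p = 0.0590) and the nuclease and helicase Dna2 the lowest at -0.65 ± 0.32 (adjusted p = 0.207). Of 66 other mitosis genes, 56 had a value below 0 (median -0.26) and 2 fell, with the centromeric histone Cenpa the lowest at -1.26 ± 0.36 (adjusted p = 0.0383) and the kinase Pbk the highest at 0.84 ± 0.65 (adjusted p = 0.423). Of the E2F, DREAM and MuvB regulators 1 of 20 rose, and of the APC/C genes 0 of 17 were called. The authors' deposited table of this comparison lists 0 of the 40 members.

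Between precursors and mature macrophages, 8 of 40 members (20.0%) fell, 0 rose and 32 did not pass, with 28.5% of all genes called lower and 25.8% higher. At an unadjusted p under 0.05, 15 were lower and 0 higher, and DESeq2 and limma called 0 higher. Of these 8, 6 act in mitosis (28.6% of 21) and 2 in S phase (10.5% of 19). The mature libraries all lay below the precursors for 34 members, and for 34.4% of all genes. The median was -1.14 over the mitotic and -0.81 over the S phase members, against -0.05 over all genes. This comparison shares its libraries with the preceding ones.

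Mki67 had 122, 209 and 402 CPM in mature macrophages against 1013 to 1178 in precursors (4.57-fold lower, log2 -2.19 ± 0.49, adjusted p = 0.00327). Foxm1 fell from 94.3, 98.7 and 88.5 to 9.23, 11.0 and 49.4 CPM (-2.01 ± 0.66, adjusted p = 0.0252). Cenpf fell from 141, 129 and 125 to 27.5, 52.8 and 38.2 CPM (-1.74 ± 0.50, adjusted p = 0.0135), one of the clearest separations of the groups. Aurkb, the kinase of the chromosomal passenger complex, fell by 1.48 ± 0.47, Kif11, the kinesin that pushes spindle poles apart, by 1.44 ± 0.53, and the checkpoint kinase Bub1b by 1.12 ± 0.44 (adjusted p = 0.0203, 0.0399 and 0.0497). Of the S phase genes Rfc4 fell by 1.17 ± 0.34 (adjusted p = 0.0136) and Mcm4 by 0.95 ± 0.36 (adjusted p = 0.0433).

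Some S phase genes had values near or above 0. Mcm6 had 293, 314 and 244 CPM in precursors and 227, 255 and 310 in mature macrophages (-0.10 ± 0.46, adjusted p = 0.865). Pcna was at 0.80 ± 0.40 (adjusted p = 0.110), Gins2 at 0.41 ± 0.42 (adjusted p = 0.424) and Tk1 at 0.13 ± 0.60 (adjusted p = 0.870). Per kilobase of exon, the 6 subunits of the MCM hexamer ranged from a mean of 23.7 CPM per kb (Mcm2) to 61.8 (Mcm5) in precursors. In mature macrophages they ranged from 11.7 (Mcm2) to 56.7 (Mcm6). The length is that of all annotated exons of a gene merged, 6956 bases for Mcm2 and 3589 for Mcm4, and the order of subunits depends on it. By mean CPM in precursors Mcm4 (142) was below Mcm2 (165). Mcm6 was at 60.8 CPM per kb in precursors, close to its level in mature cells, while Mcm5 was at 38.6 in mature cells. These are levels of RNA and no measure of the complex, which holds its subunits in equal number.

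The count of 8 became 4, 4 and 5 with precursor library 1, 2 or 3 left out in turn and 2, 4 and 10 with mature library 1, 2 or 3 left out. Over all genes, 3399 of 13548, 3334 of 13445 and 3347 of 13609 were called lower without those precursor libraries. Without those mature libraries they were 3482 of 13652, 3615 of 13857 and 4169 of 13654. The count of members was 23 with mouse number as a block (17 mitotic and 6 S phase), where Plk1, Ube2c, Ccnb1, Ccnb2, Cdc20, Birc5, Top2a, Ccna2, Bub1, Cenpe, Nusap1, Mcm7, Mcm10, Cdt1 and Prim1 also fell. Fitted on the 6 libraries compared alone, 29 were lower and 1, Pcna, was higher (adjusted p = 0.0494), as it was without mature library 2 (adjusted p = 0.0475). Over all genes, 3715 of 13359 were called lower with the block. On the 6 libraries alone, 3778 of 13116 were called lower and 3259 higher. Rfc4 and Mki67 passed under every alternative. The authors' deposited table lists 29 members among 7291 genes, the 8 called here included. Of the wider lists, 7 of 52 other replication genes fell (median -0.60), with Dna2 the lowest at -2.73 ± 0.34 and Gins4 the highest at 0.69 ± 0.28, and 17 of 66 other mitosis genes (median -0.999), with Cit the lowest at -2.44 ± 0.49 and Pttg1 the highest at 0.31 ± 0.26. Of the E2F, DREAM and MuvB regulators 7 fell and 2 rose, with E2f8 the lowest at -2.77 ± 0.52 and E2f5 the highest at 1.13 ± 0.35. Of the APC/C genes 2 rose and 1 fell, the activator Fzr1 (Cdh1), by 0.99 ± 0.18 (adjusted p = 0.000792), and Anapc10 was the highest at 0.57 ± 0.23 (adjusted p = 0.0530).

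**Figure D4:**
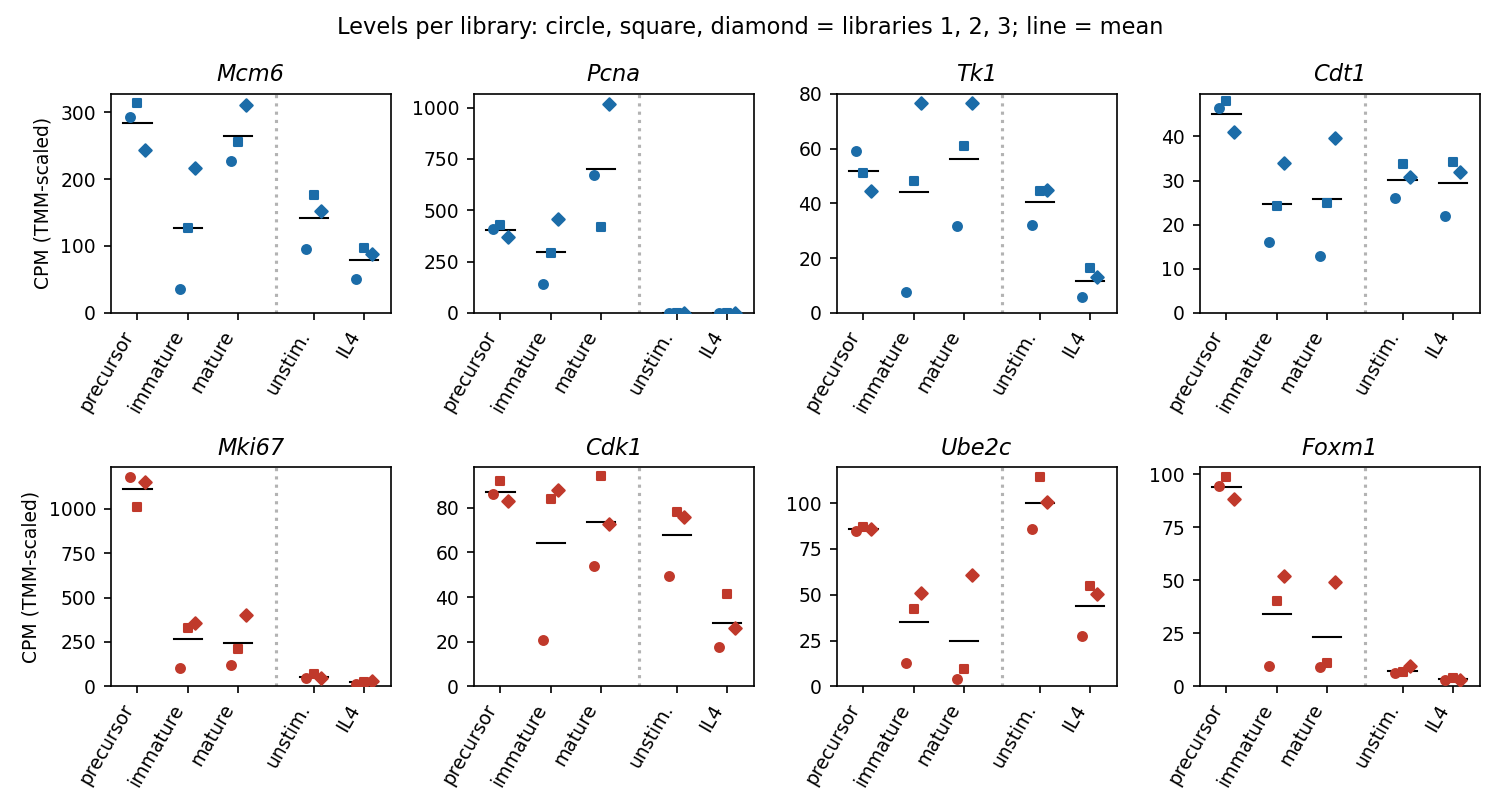
TMM-scaled CPM of 8 members in each library of the 5 groups (circle, square and diamond for libraries 1, 2 and 3, line for the mean), with the tables parted by a dotted line and not comparable across it. Mcm6 and Pcna in mature macrophages reach the precursor levels, Mki67 does not, Cdt1 is level with and without IL4, and Pcna is listed at 0 in the IL4 table.

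Mature macrophages given IL4 for 48 h had lower RNA of many members, from both S phase and mitosis. Of 37 members tested, 23 fell, 0 rose and 14 did not pass, and all 37 had a log2 fold change below 0. In this comparison 10.3% of 8936 genes were called lower and 10.5% higher, against 62.2% of the members called lower. At an unadjusted p under 0.05, 31 were lower and 0 higher, and DESeq2 and limma called 0 higher. The 3 IL4 libraries all lay below the 3 unstimulated ones for 28 members, and for 17.4% of all genes. Of those that fell, 11 act in S phase (of 17 tested) and 12 in mitosis (of 20 tested), with medians of -0.98 and -1.08 against 0.01 over all genes. The 2 medians thus lay within 0.099 of each other.

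**Figure D5:**
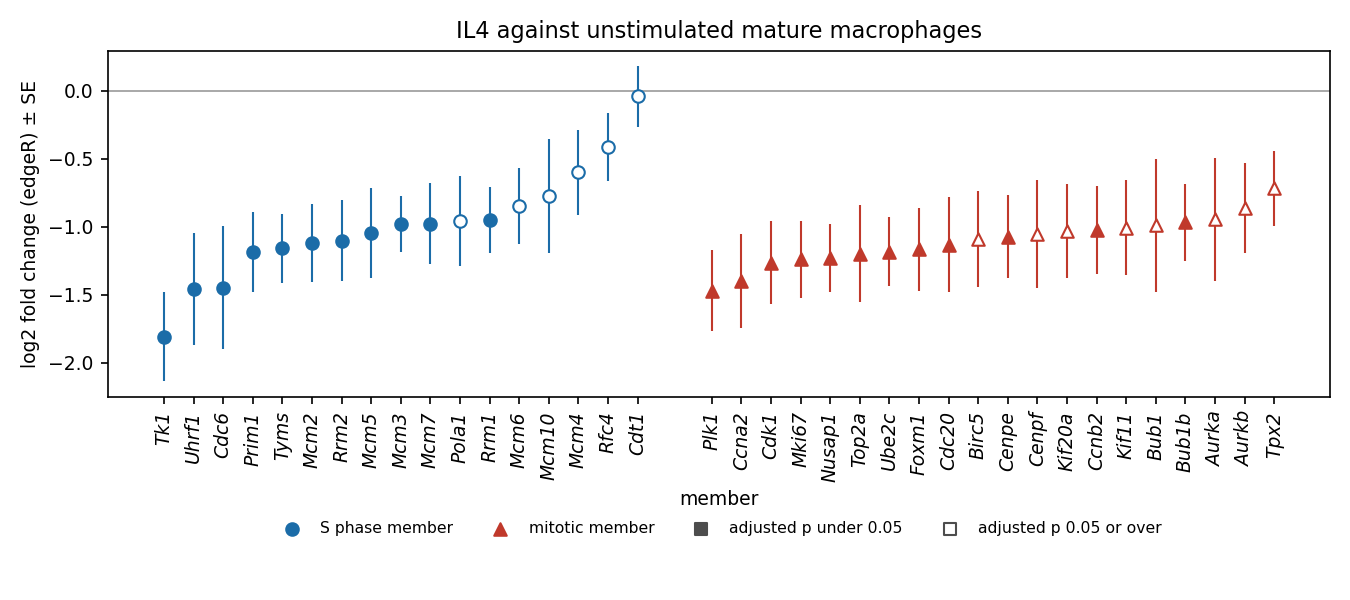
Log2 fold change ± SE of the 37 members tested in IL4 against unstimulated macrophages, filled where the adjusted p was under 0.05. All points lie below 0, Tk1 is the lowest and Cdt1, next to 0, the highest.

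The nucleotide enzymes held the lowest value. Tk1 (chr11:117815526-117826092), which recovers thymidine for DNA synthesis, had 32.1, 44.5 and 44.9 CPM without and 5.62, 16.2 and 13.2 CPM with IL4, with no overlap (log2 fold change -1.81 ± 0.33, adjusted p = 0.00244). Tyms fell from 24.9, 31.7 and 18.2 to 11.2, 12.6 and 9.22 CPM (-1.16 ± 0.25, adjusted p = 0.00739). Rrm1 and Rrm2, the subunits of ribonucleotide reductase, also fell, with log2 fold changes of -0.95 ± 0.24 and -1.10 ± 0.30 (adjusted p = 0.0174 and 0.0240). So all 4 genes of deoxynucleotide supply among the members fell.

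The helicase genes had values between -1.12 and -0.60. Mcm3 had 46.2, 45.3 and 39.0 CPM without and 17.9, 21.5 and 26.7 CPM with IL4 (-0.98 ± 0.21, adjusted p = 0.00588). Mcm2, Mcm5 and Mcm7 fell by 1.12, 1.04 and 0.98, and Mcm6 (-0.85 ± 0.28, adjusted p = 0.0534) and Mcm4 (-0.60 ± 0.31, adjusted p = 0.226) did not pass. With mouse number as a block Mcm6 and Mcm4 fell too (adjusted p = 0.000225 and 0.00816). Cdc6 fell from 6.10, 7.83 and 10.1 to 0.803, 4.30 and 3.95 CPM (-1.45 ± 0.45, adjusted p = 0.0434), on 86 reads without and 28 with IL4 over 3 libraries each.

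Cdt1 (chr8:122568015-122573128 in the IL4 table) stood apart from its licensing partner. It had 26.1, 33.8 and 30.8 CPM without and 22.0, 34.1 and 31.9 CPM with IL4, and its log2 fold change was -0.04 ± 0.22 (adjusted p = 0.931). Within mouse numbers, 37 of 37 members were lower with IL4 for mouse 1, 35 for mouse 2 (all but Mcm10 and Cdt1) and 36 for mouse 3 (all but Cdt1). Rfc4 was next, at -0.42 ± 0.25 (adjusted p = 0.308). Prim1 and Uhrf1 fell by 1.19 ± 0.29 and 1.46 ± 0.41, and Pola1, the catalytic subunit of polymerase alpha, was at -0.96 ± 0.33 (adjusted p = 0.0650), with the call passed under the block (adjusted p = 0.00700).

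Among the mitotic kinases is Plk1 (chr7:122159437-122169875 in the IL4 table). Plk1 had 29.6, 30.1 and 26.1 CPM without and 6.69, 16.2 and 8.23 CPM with IL4 (-1.47 ± 0.30, adjusted p = 0.00484). Cdk1 fell from 49.3, 78.3 and 75.7 to 17.4, 41.4 and 26.01 CPM (-1.26 ± 0.30, adjusted p = 0.0125). Its cyclin Ccna2 fell from 118, 197 and 171 to 28.1, 81.7 and 75.1 CPM (-1.40 ± 0.35, adjusted p = 0.0149), and Ccnb2 by 1.03 ± 0.32. For each of these 4 genes all IL4 libraries lay below all unstimulated ones. Aurka and Aurkb were at -0.95 ± 0.45 and -0.86 ± 0.33 and did not pass, and both fell under the block (adjusted p = 0.000677 and 0.00297).

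Mki67 fell from 47.2, 71.7 and 44.4 to 14.5, 24.8 and 29.6 CPM (-1.24 ± 0.29, adjusted p = 0.00993). Nusap1, which bundles spindle microtubules, fell from 16.4, 17.7 and 18.5 to 5.09, 8.94 and 8.56 CPM (-1.23 ± 0.25, adjusted p = 0.00502). Ube2c fell from 85.7, 114 and 101 to 27.3, 54.6 and 50.4 CPM (-1.19 ± 0.25, adjusted p = 0.00646), and Cdc20, the APC/C activator of anaphase, by 1.13 ± 0.35 (adjusted p = 0.0410). Top2a, which untangles sister DNA, Cenpe, a kinetochore motor, Bub1b and Foxm1 fell by 1.20, 1.07, 0.97 and 1.17. The 8 mitotic members that did not pass (Aurka, Aurkb, Bub1, Birc5, Cenpf, Kif11, Kif20a and Tpx2) lay between -1.09 and -0.72, and all 8 fell under the block.

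Pcna, Ccnb1 and Gins2 gave no test there. Pcna and Ccnb1 are listed at 0 reads in all 6 libraries of the IL4 table, although mature macrophages of the other table had 419 to 1018 and 19.1 to 67.0 CPM. Among 3785 genes at 50 CPM or more in those mature macrophages, 211 (5.57%) are likewise at 0 there, so a 0 in that table is no sign that a gene was silent. Gins2 had 19 to 22 reads per group and was under the filter on low counts. In GENCODE transcripts of GRCm38, 23.3% of the 31-base words of Pcna and 27.8% of those of Ccnb1 also occur in other genes, mostly the pseudogenes Pcna-ps2 and Ccnb1-ps, and 66.2% of those of Gins2, mostly in Gse1 on the other strand, so the counts of these 3 genes are uncertain. The same share was 33.4% for Mcm7, 26.7% for Cdc20 and for Kif20a, 25.3% for Ube2c and 24.2% for Uhrf1.

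The library of mouse 1 was the lowest in both groups of the IL4 table. The difference in index between its IL4 and unstimulated libraries was -1.17 for S phase and -1.52 for mitosis, against -0.80 and -0.89 for mouse 2 and -0.81 and -0.91 for mouse 3. Without both libraries of mouse 1, 28 members fell (12 of S phase and 16 of mitosis), beside 803 of 8892 genes. The count of 23 was 8 without unstimulated library 2, 12 without unstimulated library 3 and 14 without IL4 library 3, and with mouse number as a block 34 fell, the mitotic ones rising in number from 12 to 20. Over all genes, 729 of 9127, 752 of 8970 and 760 of 9129 were called lower without those libraries in turn, and 1436 of 8936 with the block. Mcm3, Mki67, Tk1, Tyms, Plk1, Nusap1 and Ube2c passed under every alternative tried. The authors' deposited table of this comparison lists 26 members among 1863 genes, the 23 called here included.

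Of the wider lists, 35 of 58 other mitosis genes fell with IL4 (median -1.20), with Pbk the lowest at -1.93 ± 0.47 (adjusted p = 0.0130) and Psrc1 the highest at 0.82 ± 0.29 (adjusted p = 0.0708). Of 44 other replication genes 15 fell (median -0.60), with the histone chaperone Asf1b the lowest at -1.65 ± 0.30 (adjusted p = 0.00279) and Rnaseh2a the highest at 0.46 ± 0.23 (adjusted p = 0.197). Of 19 E2F, DREAM and MuvB regulators 1 fell, E2f7 (-1.59 ± 0.45, adjusted p = 0.0298), and E2f6 was the highest at 0.05 ± 0.25. Of 15 APC/C subunits and activators 0 were called (median 0.03), from Fzr1 at -0.32 ± 0.20 to Anapc16 at 0.59 ± 0.25. Ube2c and Cdc20, which work with the APC/C, are members and fell. In sum the macrophage markers stood at 13612 to 17722 CPM without and 15613 to 18149 CPM with IL4. That sum hides changes in single markers: of 12 tested, 6 fell, 2 rose and 4 did not pass (median -0.69). Gpnmb, the marker with the highest mean CPM, rose from a mean of 2988 to 5842 CPM (log2 fold change 0.97 ± 0.19, adjusted p = 0.00422). Neutrophil granule markers stood at 13.1 to 26.4 and 13.9 to 21.2 CPM, with Mpo, Elane and S100a9 at 0 reads. The B lineage markers were at 0 reads in every library.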

How the data were processed

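RNA of 15 libraries was sequenced on Ion Torrent. The authors deposited whole read counts per gene and log2 RPM values. They also deposited lists of genes with an FDR, a p-value adjusted over genes, per comparison. Per the submitters' processing notes, HISAT2 2.0.5 and edgeR were used with builds GRCm38.p6 and "GRCm39.p6". How reads were counted per gene, and whether by strand, is not given in the sources used here. Coordinates of the differentiation table match GRCm38 (GENCODE) for 39 of the 40 members. The IL4 table gives other start or end positions for some members, such as Cdt1, Cdk1 and Plk1, and was not compared in this way.

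Counts were tested with edgeR 4.0.16 in R 4.3.3 (filterByExpr with a minimum count of 10, TMM scaling, quasi-likelihood test, Benjamini-Hochberg adjustment over all genes tested, threshold 0.05). The 9 differentiation libraries were fitted together (13359 genes) and the 6 IL4 libraries apart (8936 genes). The 3 comparisons of differentiation share libraries. Alternatives were RLE scaling, DESeq2 1.42.0, a robust prior, no filter, a filter at 1 CPM in 3 libraries, limma 3.58.1 on the log2 RPM, a replicate block, the compared libraries alone, and leaving out each library. On simulated counts of the 6 libraries compared, the test recovered 96.9% of 4-fold and 54.6% of 2-fold changes for immature against precursor (12749 genes). For IL4 it recovered 98.0% and 52.0% (8856 genes). Every simulated gene had the same set spread between replicates, not one estimated from these libraries. The recovery for the members, whose median SE was 0.50 for immature against precursor and 0.31 for IL4, was not tested. Nothing says how cultures were parted between groups, so p-values measure the spread between these libraries.

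Mouse numbers come from the titles. Same-numbered libraries of the IL4 table deviated together from their group means (r = 0.60, 0.17 and 0.41 over genes). Differently numbered ones there had r from -0.49 to 0.26. In the differentiation table same-numbered pairs had r from -0.15 to 0.24 and differently numbered pairs from -0.19 to 0.21. The numbers thus do not set pairs apart in that table. The members, the gene lists and the alternatives were chosen with earlier results of these data known. The text names all 40 members, the highest and lowest tested gene of each other pathway list, and single genes picked after their values were seen (Pcna and others in the alternatives).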

Additional observations from a re-analysis of the deposited data

How the results depend on the processing

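The medians of the S phase and mitotic members kept their sign under every alternative run. They moved by less than 1 SD between replicates, which is wide in the immature group, and single immature or mature libraries moved some of them by over 1.5 times. For mature against immature they came near 0: the S phase median was 0.03 without immature library 1 and the mitotic one -0.01 without immature library 3. The level index of every library also moved by less than 1 SD between replicates, and the counts of called members did not hold. For immature against precursor, 8 members called lower became 16 with DESeq2, 13 with no filter on low counts, 19 with limma on the deposited log2 RPM and 20 with the replicate block, and ranged from 4 to 20 without single replicates. For mature against immature, the 0 called lower ranged from 0 to 4 and the 0 called higher from 0 to 3 without single replicates, and 1 was called higher with DESeq2 and with no filter. For mature against precursor, 8 called lower became 16 with DESeq2, 14 with no filter, 23 with the replicate block and 29 on the 6 libraries compared, with a range of 2 to 10 without single replicates, and the 0 called higher became 1 on the 6 libraries compared and ranged from 0 to 1. For IL4 against unstimulated, 23 became 34 with the replicate block and ranged from 8 to 27 without single replicates. It was 28 without both libraries of mouse 1. The number of all genes called lower stands beside these counts as follows. For immature against precursor they were 3836, 3136 and 3382 of 13359 with DESeq2, limma and the block, and 3792 of 18914 with no filter. For mature against precursor they were 4121 and 3715 of 13359 with DESeq2 and the block, and 4256 of 18914 with no filter. For IL4 they were 1436 of 8936 with the block and 857 of 8985 without unstimulated replicate 1, where 27 members were called.

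Some single members changed sign. Alternatives other than the replicate block were followed gene by gene only for members called in any comparison, Pcna and Ccnb1. None of those that changed sign was called in the reported fit or where its sign differed. Among their values here 1 was called, Ube2c at -2.42 without mature replicate 3 (adjusted p = 0.0174). Their lowest and highest log2 fold changes without single replicates were, for immature against precursor, -0.86 and 0.28 for Tk1, -0.31 and 0.32 (with 0.06 also above 0) for Ccnb2 and -0.69 and 0.15 for Ccnb1. For mature against immature they were -0.14 and 0.85 for Mcm7, -0.28 and 0.29 for Rfc4, -0.11 and 0.93 for Rrm1, -0.14 and 0.99 for Tk1, -0.077 and 0.95 for Tyms, -0.68 and 0.21 for Mki67, -0.76 and 0.0043 for Aurkb, -0.73 and 0.25 for Kif11, -0.56 and 0.41 for Top2a, -0.23 and 0.45 for Cdk1, -0.88 and 0.045 for Ccna2, -0.81 and 0.017 for Nusap1 and -2.42 and 0.0068 for Ube2c. In most of these the extremes came from leaving out immature library 1 or 3. Top2a was at 0.23 and Nusap1 at 0.012 with limma on log2 RPM, and Top2a at 0.12 with the replicate block. For mature against precursor, Tk1 ranged from -0.15 to 0.42 and was at -0.12 with the replicate block. Some members followed only with that block also changed sign. Gins2 was at -0.068 for immature against precursor, and Aurka at 0.019 and Tpx2 at 0.055 for mature against immature. The cause of these changes was not tested. With 3 libraries a group and 1 set spread for all genes, simulated 4-fold changes were recovered far more often than 2-fold ones. The IL4 table has fewer reads.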
